A study of Arabidopsis thaliana with 11 samples.

Results

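Of the 22746 probe sets for plant genes on the array, 68 (0.299%) were high only in untreated wild-type seedlings. They were selected by the measured values. A probe set belonged when its mean log2 intensity in Col on BRZ and in arf2 on mock medium each lay at least 0.5 below Col on mock medium. All arrays of both those groups also had to lie below all Col mock arrays. The double condition, arf2 on BRZ, could lie anywhere above a bound of 0.4 below each of the other low groups. A total of 70 probe sets met these numbers, and 2 of them were left out because they were named for a gene or symbol family on a fixed exclusion list. Of the 68, 35 name exactly 1 gene, 2 name several and 31 name none in the annotation supplied here.

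Whole Arabidopsis thaliana seedlings were grown in darkness and taken at 4 days, and their total RNA was hybridised to Affymetrix ATH1 arrays, which carry sets of short probes for individual genes. The seedlings were Col, the wild type, or arf2, a mutant whose allele the labels do not give. Each genotype received either mock medium or 0.5 µM brassinazole (BRZ), a compound that blocks the making of brassinosteroids. The arrays comprised 3 of Col mock, 3 of Col BRZ, 3 of arf2 mock and 2 of arf2 BRZ, described as independent biological replicates.

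Brassinosteroids are plant steroid hormones that drive cell elongation in the dark-grown hypocotyl. Their signal inactivates GSK3-type kinases such as BIN2, and dwarf, partly de-etiolated seedlings are the known result when synthesis is blocked. ARF2 is an auxin response factor that represses transcription, and BIN2 is known to phosphorylate it. The comparison thus sets loss of the steroid beside loss of ARF2 and asks what both together do. The annotation names neither ARF2 nor any gene that makes brassinosteroids, so neither was analysed here.

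The differences between Col mock, Col BRZ, arf2 mock and arf2 BRZ all entered the choice of members. They are given as a description, and no test is read from them. Values are intensities on a linear scale, folds are ratios of geometric means over arrays, and errors are standard errors (SE) of log2 differences from a linear model in limma. Both low groups were compared with the same 3 Col mock arrays. In RNA from whole seedlings, fewer cells of a type and less RNA per cell cannot be told apart.

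The typical member differed modestly. Its median fold below Col mock was 1.65 in Col BRZ (range 1.43 to 4.05) and 1.61 in arf2 mock (1.42 to 4.49). In 10 members the level was at least 2-fold lower in Col BRZ, in 10 it was so in arf2 mock, and in 6 it was so in both. In 52 members the smaller of both log2 differences was under 0.75. The median log2 difference was -0.73 in Col BRZ and -0.68 in arf2 mock, beside 0.06 and 0.05 over all 21886 probe sets tested. All 68 passed the filter on low values, a log2 intensity above 4 on at least 2 arrays. In limma 67 were called lower in Col BRZ (adjusted p under 0.05), where 2.74% of all tested probe sets were, and 68 were called lower in arf2 mock, where 1.97% were. The rule forces such counts, so nothing is read from them.

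**Figure D1:**
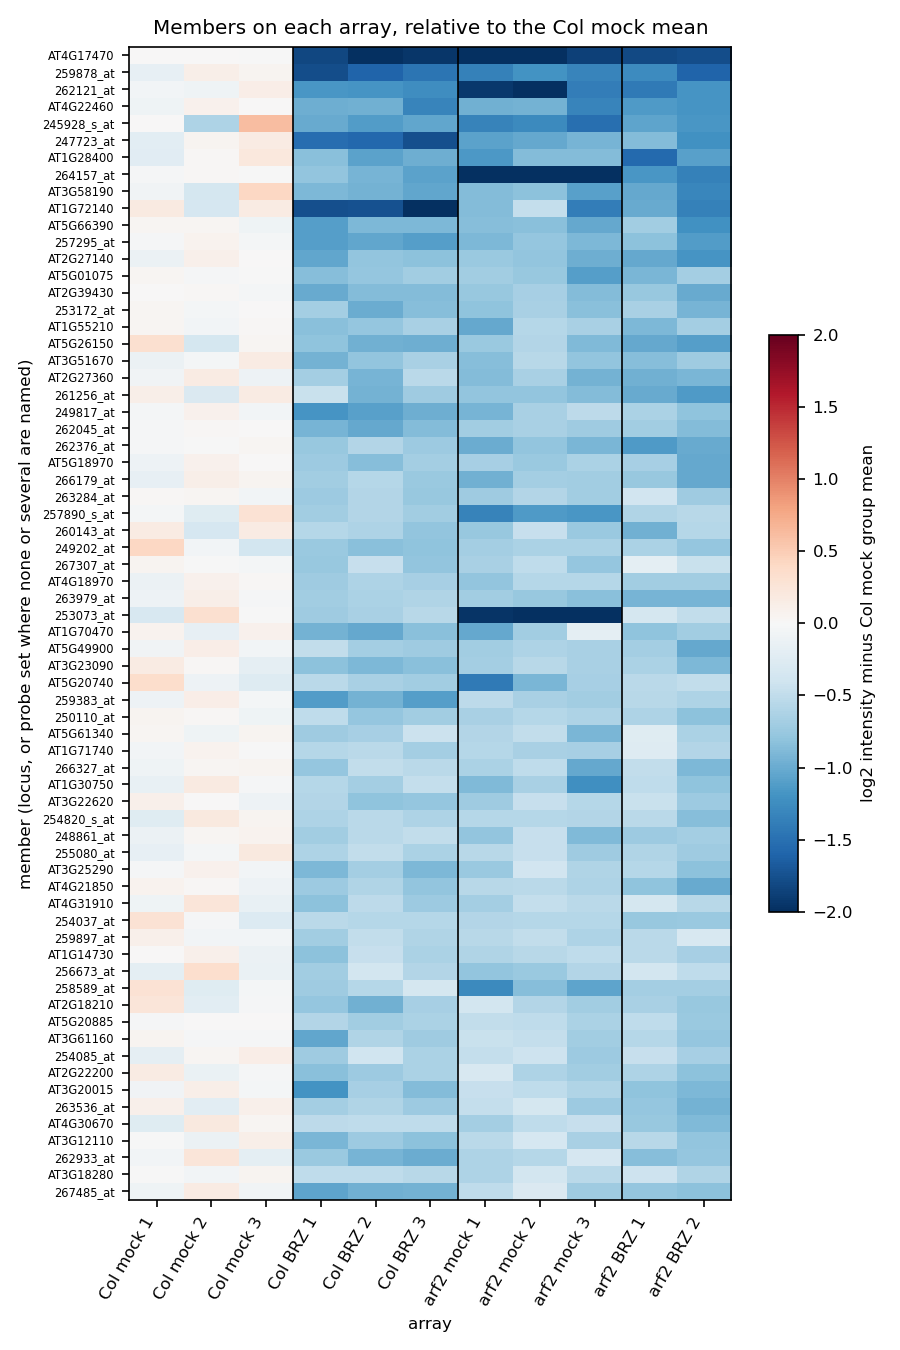
Log2 intensity of each of the 68 members (lines) on each of the 11 arrays (columns), minus the Col mock group mean of that member. White is no difference and blue is lower. The scale ends at -2.0, so lower values share the darkest blue. Both arf2 BRZ columns lie below 0 throughout. The rule set only a lower bound for them, but it selected the Col mock arrays for high values. Over all probe sets 10.9% had every arf2 BRZ array below every Col mock array. Nothing is read from the difference.

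The Col mock levels of the members ran from a log2 intensity of 4.57 to 12.38, with a median of 8.33. The top value was spread over the Col mock arrays. The highest Col mock value lay on array 1 in 21 members, on array 2 in 30 and on array 3 in 17. The gap from the lowest Col mock array to the highest of the other 8 arrays had a median of 0.36 on the log2 scale. It ranged from 0.03 to 1.77 and was 0.5 or more in 18 members. The rule itself required the Col mock arrays to lie above those of Col BRZ and arf2 mock. The gap is thus a description, and its share over all probe sets is not given here.

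Among the enzymes acting on lipids, cell walls or proteins, the alpha/beta-hydrolase AT4G17470 stood furthest apart. Its intensity was 265, 267 and 262 on the Col mock arrays. It was 75.1, 54.2 and 68.7 in Col BRZ, 57.6, 65.8 and 72.5 in arf2 mock, and 76.0 and 77.1 in arf2 BRZ. The 3 Col mock arrays were nearly equal, Col BRZ and arf2 mock overlapped, and both arf2 BRZ arrays lay just above them. The level was 4.05-fold lower in Col BRZ (log2 difference -2.02, SE 0.12), 4.07-fold lower in arf2 mock (-2.03, SE 0.12) and 3.46-fold lower in arf2 BRZ (-1.79, SE 0.14).

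The secretory peroxidase AT5G66390 (PRX72), which takes part in lignin formation, had closely spaced arrays in Col mock. It read 1703, 1697 and 1564 in Col mock, 769.7, 888 and 886 in Col BRZ, 916, 929 and 812 in arf2 mock, and 1020 and 716 in arf2 BRZ. The 3 low groups overlapped. They lay 1.95-fold, 1.87-fold and 1.93-fold below Col mock (SE of the log2 difference 0.13, 0.13 and 0.14).

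A pair of dirigent-like genes was present. Dirigent proteins steer the coupling of phenolic radicals in lignan and lignin formation. AT2G39430 read 635, 639 and 612 in Col mock, 313, 346 and 344 in Col BRZ, 371, 397 and 346 in arf2 mock, and 371 and 312 in arf2 BRZ. AT1G55210 read 499.6, 467 and 495 in Col mock, 273, 284 and 309 in Col BRZ, 239.6, 328 and 309 in arf2 mock, and 262 and 304 in arf2 BRZ. In both genes all 3 low groups overlapped, though in AT2G39430 the Col BRZ and arf2 mock ranges met only at their ends, near 346. The log2 differences of AT2G39430 were -0.91, -0.76 and -0.89 in Col BRZ, arf2 mock and arf2 BRZ (SE 0.10, 0.10 and 0.11). Those of AT1G55210 were -0.76, -0.75 and -0.79 (SE 0.12, 0.12 and 0.14).

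GDSL lipases, secreted esterases of which some act on cutin and waxes, gave another pair. AT2G27360 read 325, 382 and 319 in Col mock, 212, 179 and 233 in Col BRZ, 186, 218 and 176 in arf2 mock, and 174 and 182 in arf2 BRZ. AT4G18970 read 2120, 2435 and 2332 in Col mock and 1397, 1489 and 1450 in Col BRZ. In arf2 mock it read 1323, 1543 and 1547, and in arf2 BRZ 1408 and 1412. No array of another group lay within the Col mock range of either gene, which the rule required of the Col BRZ and arf2 mock arrays.

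The remaining enzymes included some whose low groups read apart, though no difference between Col BRZ and arf2 mock was called. AT5G01075, related to glycosyl hydrolases, read 149, 143 and 144 in Col mock and between 67.4 and 90.1 on the other 8 arrays. The beta-glucosidase family member AT5G49900 read 297, 339 and 298 in Col mock and between 153 and 221 elsewhere. The aspartyl protease AT3G20015 read 96.4, 138 and 120.4 in Col BRZ and 159, 154 and 145 in arf2 mock, beside 208, 238 and 214 in Col mock. In arf2 BRZ it read 126 and 118, within the Col BRZ range. Its arf2 mock and Col BRZ levels were not called different in limma (adjusted p 0.0661). AT5G20740, of the family that inhibits invertases and pectin methylesterases, was uneven between arrays. It read 193, 141 and 127 in Col mock, 104, 96.8 and 93.7 in Col BRZ, 56.7, 80.7 and 95.0 in arf2 mock, and 104 and 108 in arf2 BRZ. This was the 1 member not called lower in Col BRZ (log2 difference -0.63, SE 0.19).

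Lipid transfer-like proteins, small secreted proteins with 8 conserved cysteines, numbered 3. AT4G22460 read 318, 356 and 339 in Col mock, 171, 174 and 135 in Col BRZ, 174, 175 and 135 in arf2 mock, and 153 and 149 in arf2 BRZ. It was the other named gene at least 2-fold lower in both low groups, at 2.12-fold and 2.11-fold, and arf2 BRZ lay 2.23-fold below Col mock. AT3G22620 read 1617, 1524 and 1411 in Col mock and between 868 and 1115 on the other 8 arrays. AT3G18280 read 1110, 1073 and 1162 in Col mock and between 728 and 864 elsewhere, which made it the named member nearest the threshold. A probe set shared by AT4G12510 and AT4G12520, a like pair of genes whose signals cannot be separated, read 4512, 6059 and 5499 in Col mock and between 2956 and 3679 elsewhere.

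Among membrane and transport genes, AT1G72140, of the nitrate and peptide transporter family, had unequal low groups. It read 114, 79.9 and 113 in Col mock, 30.1, 30.1 and 25.1 in Col BRZ, 55.7, 73.0 and 38.8 in arf2 mock, and 50.6 and 39.7 in arf2 BRZ. The Col BRZ arrays lay below all others. The level was 3.57-fold below Col mock in Col BRZ, 1.87-fold in arf2 mock and 2.26-fold in arf2 BRZ (SE of the log2 difference 0.21, 0.21 and 0.24).

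The remaining membrane genes had overlapping low groups. AT3G51670, a SEC14-type lipid-binding protein, read 636, 669.8 and 768 in Col mock and between 358 and 469 elsewhere. AT5G18970, of the AWPM-19-like membrane protein family, read 288, 330.0 and 313 in Col mock and between 153 and 199.5 elsewhere. A pair of cytochrome b561-type genes, which encode electron carriers of membranes, also belonged. AT3G25290 read 214, 230.2 and 209 in Col mock, 116, 135 and 117 in Col BRZ, 131, 167 and 144 in arf2 mock, and 147 and 124 in arf2 BRZ. AT1G14730 read 331, 352 and 304 in Col mock and between 186 and 239 elsewhere.

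Regulators and hormone-related genes numbered 6. LBD29 (AT3G58190), an auxin-induced transcription factor of lateral root formation, was measured close to background. It read 38.4, 31.6 and 53.9 in Col mock, 21.7, 21.0 and 19.7 in Col BRZ, 22.1, 22.8 and 18.9 in arf2 mock, and 19.9 and 16.3 in arf2 BRZ. Its low groups sat near the lower quartile of the arrays, an intensity of 21.2, so the size of its difference is limited by the background. The log2 differences were -0.96, -0.93 and -1.16 (SE 0.17, 0.17 and 0.19). LBD16 (AT2G42430), the other family member tested, differed by 0.14 and -0.02 in Col BRZ and arf2 mock (SE 0.15 for each).

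BAT1 (AT4G31910), an acyltransferase known to act on brassinosteroids and reduce their activity, was the gene closest to the hormone pathway itself. It read 374, 469 and 358 in Col mock, 225, 277 and 239 in Col BRZ, 249, 287 and 274 in arf2 mock, and 310.2 and 271 in arf2 BRZ. Here the mean of arf2 BRZ lay above those of both low groups, and its arrays lay below every Col mock array. The log2 differences were -0.69, -0.56 and -0.45 (SE 0.13, 0.13 and 0.14).

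AT3G61160 encodes a shaggy-related kinase, of the GSK3 type to which BIN2 belongs. It read 811, 773 and 771 in Col mock, 382, 515 and 478 in Col BRZ, 574, 563 and 484 in arf2 mock, and 529 and 458 in arf2 BRZ. No other shaggy-related kinase gene was measured by a probe set naming it alone. The protein kinase AT5G26150 read 77.5, 48.7 and 64.4 in Col mock and between 29.0 and 41.7 elsewhere. The AP2/ERF-type transcription factor AT2G22200 read 124, 101 and 109 in Col mock and between 62.1 and 88.9 elsewhere. AT5G20885, a RING/U-box protein of the type that includes ubiquitin ligases, was the steadiest, at 486, 495 and 495 in Col mock and between 295 and 349 elsewhere.

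Genes of the cytoskeleton and of protein repair or folding made a group of 4. WDL3 (AT3G23090), a microtubule-associated protein of hypocotyl elongation, read 275, 249 and 216 in Col mock, 139, 131 and 137 in Col BRZ, 153, 168 and 156 in arf2 mock, and 158 and 131 in arf2 BRZ. ACT11 (AT3G12110), an actin, read 229.7, 214 and 252 in Col mock, 122, 139 and 131 in Col BRZ, 159, 183 and 147 in arf2 mock, and 158 and 133 in arf2 BRZ. In both genes every Col BRZ array lay below every arf2 mock array. Neither difference between those groups was called in limma (adjusted p 0.236 and 0.104), and 12.8% of all tested probe sets were. MSRB9 (AT4G21850), which reduces oxidised methionine, read 3131, 3058 and 2799 in Col mock, 1811, 1973 and 1728 in Col BRZ, 2038, 2058 and 1954 in arf2 mock, and 1707 and 1491 in arf2 BRZ. The HSP20-like gene AT2G27140 read 169, 196 and 184 in Col mock and between 81.1 and 109 elsewhere. For both of these the lowest array was an arf2 BRZ array.

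Another 7 named members have no role given here. AT1G28400 differed most among them, at 218, 258 and 296 in Col mock, 143, 122 and 129.8 in Col BRZ, 115, 140.4 and 140.4 in arf2 mock, and 87.3 and 120.0 in arf2 BRZ. AT1G30750 read 1268, 1587 and 1384 in Col mock and between 598 and 1006 elsewhere. AT4G30670 read 767, 1042 and 933 in Col mock and between 490.5 and 657 elsewhere. The Col mock arrays of these 3 lay above all 8 other arrays, which the rule required for Col BRZ and arf2 mock. AT1G70470 read 73.4, 61.9 and 74.1 in Col mock, and arf2 mock array 3, at 60.6, came close to it. AT2G18210 read 55.5, 40.5 and 45.9 in Col mock and between 24.0 and 36.4 elsewhere. AT5G61340 (142, 129.6 and 143 in Col mock) and AT1G71740 (423, 460.3 and 438) had their highest other value on arf2 BRZ array 1, at 116 and 369.8.

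**Figure D2:**
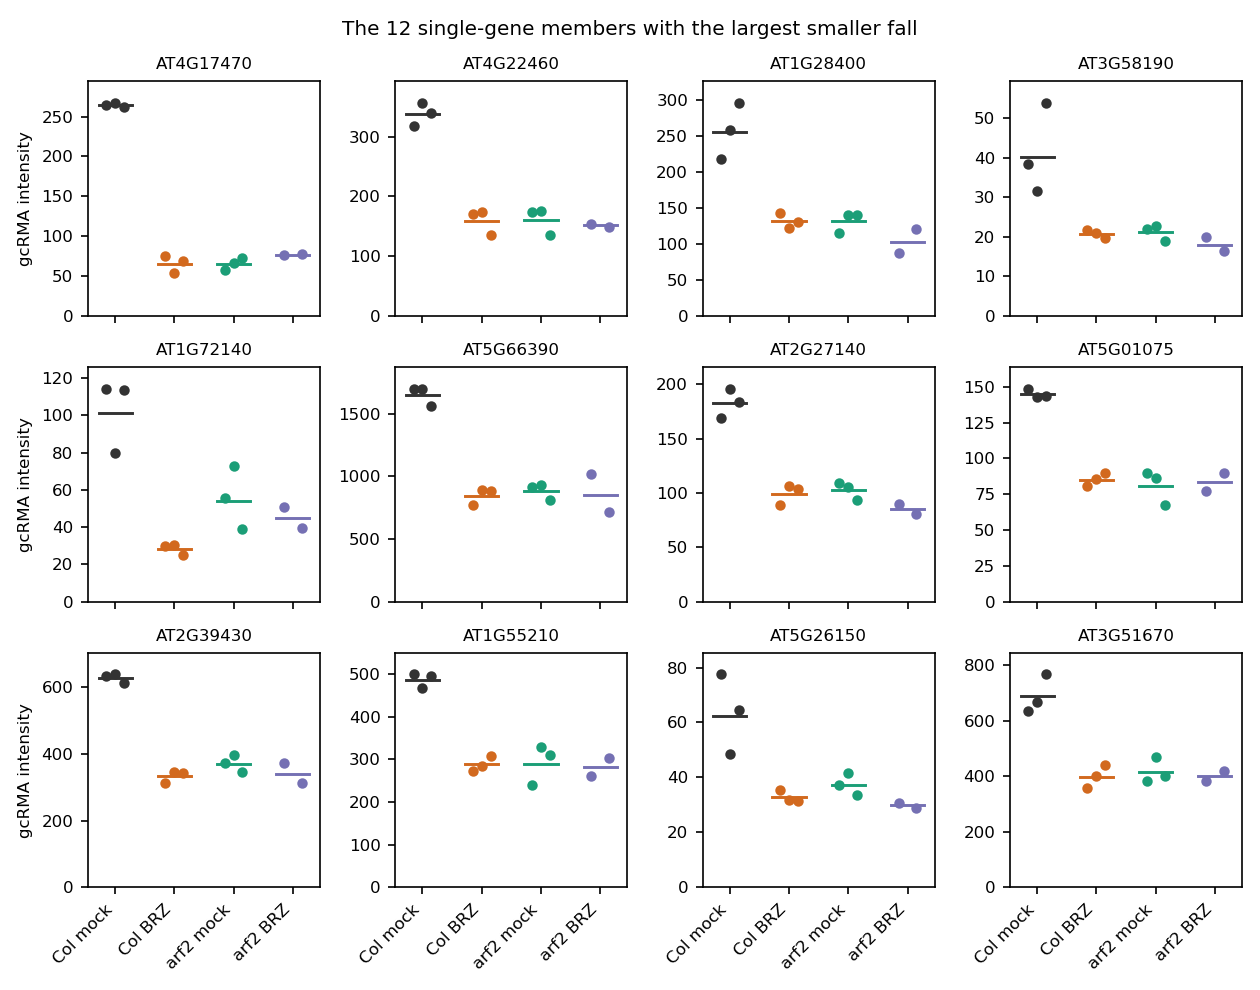
Intensity on each array (points) with the geometric mean of each group (lines) for the 12 single-gene members in which the smaller of both differences from Col mock was largest. Each axis starts at 0 and has its own scale. In each of these genes the 3 Col mock points lie above the other 8, which the rule required for Col BRZ and arf2 mock. In AT1G72140 the Col BRZ points lie below all others.

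Of the 31 members without a gene name, 5 were among the 10 members with the largest smaller difference, and their median log2 differences (-0.69, -0.70 and -0.76) were close to those of all members. The share of members without a name was 45.6%, and that over all probe sets was 38.4%. A probe set type that can match several transcripts was found in 3 members (4.66% of all probe sets). The 35 named genes were spread over all 5 chromosomes, with 7, 5, 9, 6 and 8 on chromosomes 1 to 5. In the gene order of the TAIR10.1 assembly, 1 pair lay within 10 genes of each other, AT5G20740 and AT5G20885, 9 genes apart. Of their immediate neighbours 30 were measured. These had median log2 differences of 0.00 in Col BRZ and -0.07 in arf2 mock, and none was called lower in both. Over all tested probe sets 2.74% were called lower in Col BRZ and 1.97% in arf2 mock. The share called lower in both is not given here and can be no higher than the smaller of these. Nothing is thus read from the count of neighbours.

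For arf2 on BRZ the rule set only a lower bound. In all 68 members every arf2 BRZ array lay below every Col mock array. Over all probe sets this held for 10.9%. The Col mock arrays were selected for high values in the members and not over all probe sets, so nothing is read from the difference between both shares. The median log2 difference from Col mock was -0.77 (range -1.79 to -0.32), beside 0.07 over all probe sets tested. The mean of arf2 BRZ lay between those of Col BRZ and arf2 mock in 34 members, above both in 12 and below both in 22. It lay within 0.2 of both in 34.

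In limma 62 members were called lower in arf2 BRZ than in Col mock, where 2.29% of all tested probe sets were. Col mock was selected for high values and arf2 BRZ was bounded below by the rule, so this count is a description. It fell to 34 without arf2 BRZ array 2 and to 42 without arf2 BRZ array 1. The difference from Col mock in arf2 BRZ was under 0.5 in 7 members, among them BAT1, AT5G61340 and AT1G71740. Between arf2 BRZ and Col BRZ no member was called (0.617% of all probe sets were), with 10 members at an unadjusted p under 0.05, 5 higher and 5 lower, beside 5.62% higher and 4.03% lower over all probe sets tested. Without Col mock array 2 there was 1, and array weights gave 5. Between arf2 BRZ and arf2 mock 3 were called, all higher on BRZ, where 5.81% of all probe sets were called in either direction. Both comparisons were bounded by the rule on the lower side.

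If both differences had added up, arf2 BRZ would have lain at their sum. The distance from that sum is the interaction of genotype and treatment, and the rule itself makes it positive. Its median was 0.71 on the log2 scale (range 0.25 to 2.25), beside -0.05 over all probe sets tested. It was largest in AT4G17470, at 2.25 (SE 0.19). In AT4G30670 it was 0.25 (SE 0.17), the smallest. The interaction was called in 18 members, and 0.251% of all probe sets were called higher. This count was 7 without arf2 BRZ array 1, 10 without Col BRZ array 1, and 11 on removing any one of Col BRZ arrays 2 and 3, arf2 mock array 1 and Col mock array 1.

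**Figure D3:**
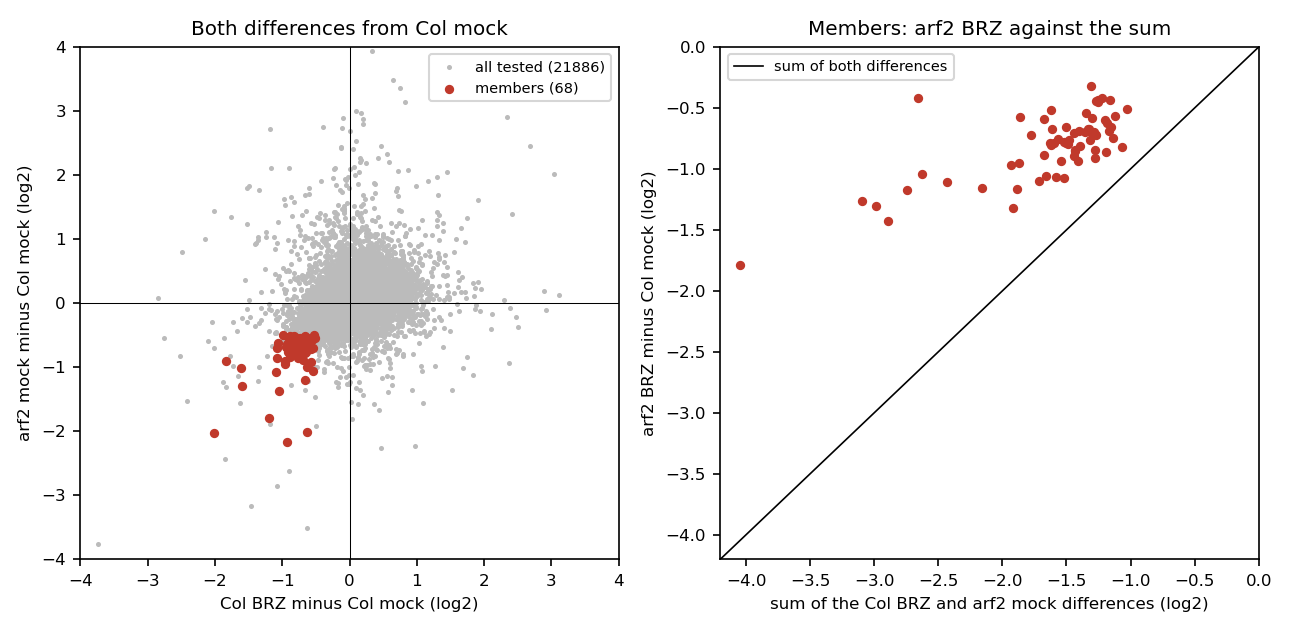
Left, log2 difference from Col mock in Col BRZ against that in arf2 mock for all 21886 tested probe sets (grey) and the 68 members (red), which the rule confines to the lower left. Right, for the 68 members, the log2 difference of arf2 BRZ from Col mock against the sum of both single differences. The members lie above the line of equal values, by 0.25 to 2.25.

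The comparison of arf2 mock with Col BRZ had no direct part in the rule. Its difference uses no Col mock array, but its SE comes from a variance shared by all 11 arrays. The rule also selected both groups for lying below all Col mock arrays. The comparison asks whether the mutant and the treated wild type held a member at the same level. The median log2 difference was 0.03 (range -1.38 to 0.93). In limma 9 members were called, 4 higher and 5 lower in arf2 mock, while 12.8% of all tested probe sets were called, in either direction. In this fit the members' share of 9 in 68 is near that background. The count was 5 without arf2 mock array 1, 12 without Col mock array 2 and 16 with array weights. The shares over all probe sets in those settings are not given here. At an unadjusted p under 0.05, 12 were higher and 7 lower, beside 11.7% higher and 12.7% lower over all probe sets tested. A member that was not called is not thereby shown to be equal in both groups.

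AT1G72140 was the 1 called member that names a single gene, higher in arf2 mock by a log2 difference of 0.93 (SE 0.21, adjusted p 0.0137). Its adjusted p was 0.0691 without Col BRZ array 3 and 0.0527 without arf2 mock array 2. The largest differences belonged to a pair of unnamed probe sets. Probe set 264157_at read 809, 837 and 819.8 in Col mock, 477, 429 and 393 in Col BRZ, 166, 182 and 202 in arf2 mock, and 368 and 321 in arf2 BRZ. It was lower in arf2 mock than in Col BRZ by a log2 difference of -1.24 (SE 0.11, adjusted p 1.7e-05). Probe set 253073_at read 175, 273 and 218 in Col mock, 134, 139 and 149 in Col BRZ, 55.9, 54.0 and 51.6 in arf2 mock, and 172 and 155 in arf2 BRZ. It differed by -1.38 (SE 0.14, adjusted p 5.34e-05). In both, arf2 BRZ was well above arf2 mock, and in the second it came near the lowest Col mock array.

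The same direction was seen in the probe set shared by AT3G17070, a peroxidase, and AT3G42570. It read 153, 132 and 190.4 in Col mock, 97.0, 104 and 97.0 in Col BRZ, 62.0, 71.4 and 69.8 in arf2 mock, and 103 and 107 in arf2 BRZ. Its arf2 mock level lay below Col BRZ by a log2 difference of -0.55 (SE 0.12, adjusted p 0.0121), which became 0.0508 without Col BRZ array 2 and 0.0575 without arf2 mock array 1. These 3 probe sets were also the 3 called higher in arf2 BRZ than in arf2 mock.

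Each array of Col mock, Col BRZ and arf2 mock was also left out in turn, the rule was applied to the other 10, and the array was then read. Left-out Col BRZ arrays lay below all Col mock arrays in 67 of 69, 72 of 73 and 69 of 71 chosen probe sets for arrays 1, 2 and 3. Left-out arf2 mock arrays did so in 64 of 66, 70 of 74 and 63 of 78. Over all probe sets an array lay on its side in 15.8% to 20.9% for these 6 arrays. The arrays of the low groups were read against Col mock arrays that the rule had selected for high values, which the share over all probe sets does not include, so these counts are a description. Left-out Col mock arrays were likewise read against low groups that the rule had selected. A left-out Col mock array lay above all arrays of both low groups in 75 of 84 (89.3%) for array 1, 68 of 87 (78.2%) for array 2 and 71 of 148 (48.0%) for array 3. The shares over all probe sets were 10.6%, 22.1% and 11.3%. For array 3 the median distance was 0.05 on the log2 scale, so about as many of the probe sets chosen on Col mock arrays 1 and 2 overlapped a low group on array 3 as cleared both. The left-out array had still taken part in the authors' normalization.

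**Figure D4:**
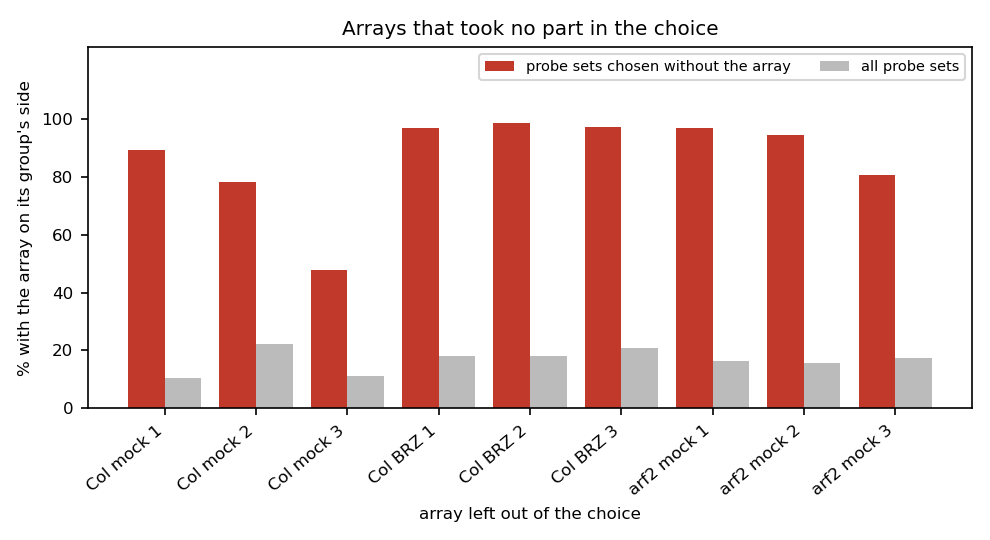
Share of probe sets in which the array named below each pair of bars lay on its group's side, in percent, for probe sets chosen by the rule without that array (red) and for all probe sets (grey). The red bars stand at 94.6% to 98.6% for 5 of the 6 arrays of the low groups, at 80.8% for arf2 mock array 3, and at 48.0% for Col mock array 3.

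Arrays also differed in their level over all probe sets. The median log2 intensity of an array was 5.93 to 6.20 in Col mock, 6.20 to 6.22 in Col BRZ, 6.09 to 6.22 in arf2 mock and 6.23 to 6.28 in arf2 BRZ. With equal array medians the rule chose 129 probe sets, 61 of them among the 68, and with quantile normalization it chose 120, 65 of them among the 68. The same rule with every sign turned, low only in Col mock, chose 103 probe sets as deposited, 41 with equal medians and 48 with quantile normalization. Without Col mock array 3 the mirrored rule chose 662, and without arf2 mock array 3 it chose 181. Which of both directions held more probe sets thus flipped with the scaling. A control for 25S ribosomal RNA ran from 59.7 to 95.9 in Col mock, from 85.3 to 131 in Col BRZ, from 173 to 263 in arf2 mock and from 33.6 to 63.9 in arf2 BRZ. The part of these technical measures in the members' levels was not tested.

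The cell types behind the bulk signal could be checked only in part. Of 2 genes listed for dark-grown seedlings 1 was measured, PORB (AT4G27440), a protochlorophyllide reductase. PORB was at a log2 intensity of 11.80 in Col mock, 11.90 in Col BRZ, 11.12 in arf2 mock and 11.31 in arf2 BRZ. It was lower in arf2 mock than in Col mock by a log2 difference of -0.68 (SE 0.15, adjusted p 0.0183). Of 9 markers of light-grown leaf 1 was measured, RCA (AT2G39730), at 11.20, 11.12, 11.06 and 10.89. The root hair markers EXPA7 (AT1G12560) and EXPA18 (AT1G62980) were near the lower quartile in every group, between 4.31 and 4.72. No marker of seed or xylem was named in the annotation used here. The part of cell composition in the members' levels was not tested. None of the 94 genes tested from 28 gene lists for hormone, wall and other pathways was a member, where members made up 0.299% of all probe sets. Only 16 lists had a tested gene, and the rule left out by name some genes of the listed families. The lists were also incomplete. That for nitrate and peptide transporters lacked AT1G72140, and that for brassinosteroid synthesis and inactivation lacked BAT1. Nothing is thus read from the absence of members.

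Other genes of the members' families were read from lists drawn up after the members were seen. They took no part in the rule, and their adjusted p runs over all 21886 probe sets tested. Of 13 other dirigent-like genes tested, 3 fell in Col BRZ and 3 fell in arf2 mock, none rose in either, and the median log2 differences were -0.12 and -0.07. Of all probe sets tested, 2.74% were called lower in Col BRZ and 1.97% in arf2 mock, and 6.2% and 5.38% were called higher. AT4G11190 fell furthest, by 1.84 in Col BRZ (SE 0.12, adjusted p 5.4e-06) and by 2.44 in arf2 mock (SE 0.12, adjusted p 4.43e-07). In arf2 BRZ it lay lower still, at a log2 difference of -3.06 (SE 0.13), which kept it outside the members.

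AT4G13580 fell by 0.47 in Col BRZ (SE 0.11, adjusted p 0.0257) and by 0.55 in arf2 mock (SE 0.11, adjusted p 0.0122). Its call in Col BRZ was lost without any one of Col BRZ arrays 1 and 3 and Col mock arrays 1 and 2, with adjusted p between 0.059 and 0.106. AT3G13650 fell by 0.83 in Col BRZ (SE 0.13, adjusted p 0.00245), and in arf2 mock it differed by -0.25 (adjusted p 0.317). AT4G11210 fell by 0.39 in arf2 mock (SE 0.10, adjusted p 0.0291), but its mean log2 intensity was 4.44 in Col mock and 4.04 in arf2 mock, beside a mean lower quartile of the arrays of 4.41. The size of this difference is thus limited by the background. That call was lost without any one of arf2 mock arrays 1 and 2, Col mock arrays 1 and 2 and Col BRZ array 3, with adjusted p between 0.0513 and 0.114.

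**Figure D5:**
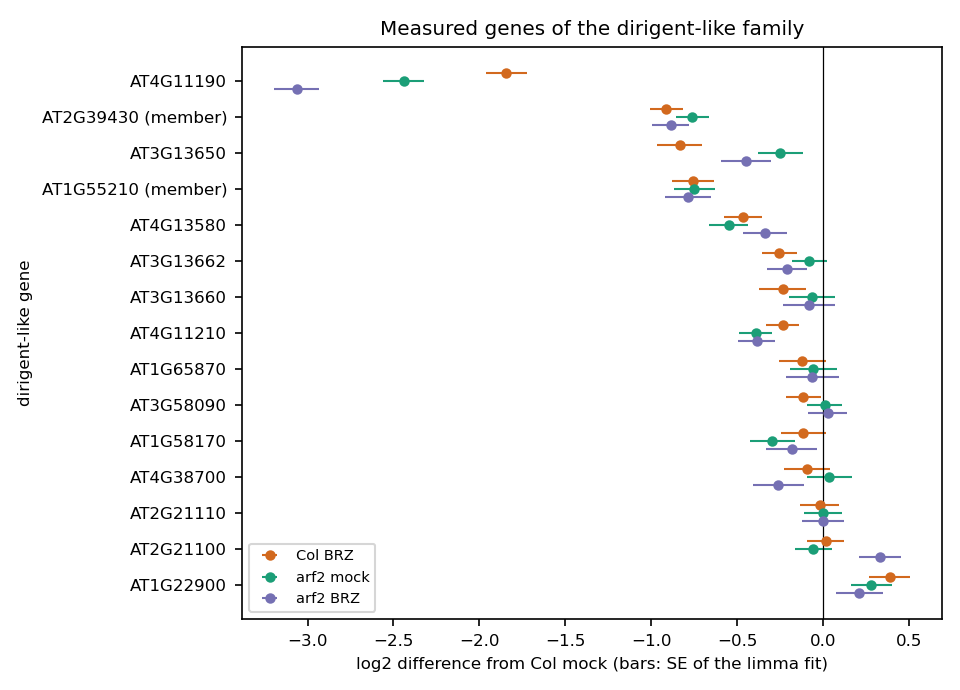
Log2 difference from Col mock in Col BRZ, arf2 mock and arf2 BRZ (points, with the SE of the limma fit as bars) for the 15 measured dirigent-like genes, 2 of which are members. AT4G11190 lies furthest to the left in all 3 groups, and AT1G22900 lies to the right of 0 in all 3.

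Class III peroxidases were called in both directions. Of 54 tested genes outside the members, 4 fell and 8 rose in Col BRZ, and 4 fell and 6 rose in arf2 mock, with median log2 differences of 0.00 and 0.02. Over all probe sets tested 2.74% were called lower and 6.2% higher in Col BRZ, and 1.97% lower and 5.38% higher in arf2 mock. With equal array medians 6 fell and 5 rose in Col BRZ, and 5 fell and 3 rose in arf2 mock. The 8 rises became 4 without Col BRZ array 1, Col BRZ array 2 or Col mock array 1, and 5 when Col BRZ array 3 was left out. The 4 falls in arf2 mock became 1 without arf2 mock array 1 or 3 and 2 without Col mock array 1. AT2G41480 fell by 1.84 in Col BRZ (SE 0.13, adjusted p 9.35e-06) and by 1.32 in arf2 mock (SE 0.13, adjusted p 9.19e-05), and its arf2 BRZ mean lay at -2.09 (SE 0.14). The list of lipid transfer-like genes was incomplete, since it held the member AT4G22460 but neither AT3G22620 nor AT3G18280. Of the 10 other tested genes on it none fell and 2 rose in Col BRZ, and 2 fell and 1 rose in arf2 mock. With equal medians 2 fell in Col BRZ as well, and without any one array other than Col mock array 3 the falls in arf2 mock numbered 1.

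The threshold of 0.5 cut through a continuous range. Just inside it lay AT3G18280, with a smaller difference of 0.50, and ACT11 (AT3G12110) and AT4G30670, each with 0.51. Just outside it lay AT1G31710, a copper amine oxidase family gene, with 0.49, and 2 unnamed probe sets with 0.49 and 0.48. AT1G31710 had mean log2 intensities of 8.69 in Col mock, 8.04 in Col BRZ, 8.19 in arf2 mock and 8.05 in arf2 BRZ. With a threshold of 0.4 the rule would have chosen 111 probe sets and with a threshold of 1 it would have chosen 6.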

How the data were processed

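The deposited table holds intensity values per probe set on a linear scale. The authors computed them with gcRMA, per the series' design text, and the version is not given in the sources used here. The same text says that only 2 arrays of arf2 on BRZ passed quality control. Log2 values were taken from the deposited intensities. Arrays give no counts, and their number limits the precision.

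The 64 control probe sets were left out. The rule was applied to 22746 probe sets, and 21886 that exceeded log2 4 on 2 or more arrays entered 1 limma fit (version 3.58.1, R 4.3.3) over all 11 arrays, with 1 mean per group and Benjamini-Hochberg adjustment over all of them. A probe set was called at an adjusted p under 0.05. Figures were drawn with matplotlib 3.10.9.

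The members, the lists and the alternatives were chosen with earlier results of these data known. The comparison of arf2 mock with Col BRZ and the family lists were added after the members were seen. The naming rule took the 20 single-gene members with the largest smaller difference, the 5 with the highest arf2 BRZ relative to both low groups, and the 3 nearest the threshold on either side. It gave 25 of the 35, and the other 10 were named to account for every gene. Gene names came from the supplied platform annotation, and gene order from the TAIR10.1 table. Promoter motifs and 14 lists defined by words of gene descriptions were not analysed here. Alternatives were equal array medians, quantile normalization, no filter, a floor at log2 4, array weights, trend and robust variances, other minimum differences, a replicate block and each array left out.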

Additional observations from a re-analysis of the deposited data

Results flagged for a closer look

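The interaction of genotype and treatment was called in 18 members, all with arf2 BRZ above the sum of both single differences. Over all tested probe sets 0.251% were called higher. Without single arrays 7 to 21 members were called, and with the replicate block 10. The rule fixes the sign of the interaction and bounds its size from below, so the count of 18 is no independent result. It includes AT4G17470, AT4G22460, AT2G39430 and AT1G71740. A control for 25S ribosomal RNA, which no comparison used, was higher in arf2 mock than in Col mock by 1.44 on the log2 scale, and the ranges of both groups did not overlap.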

How the results depend on the processing

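The number of members depended on the minimum difference, the scaling between arrays and the Col mock arrays. Against 68 as deposited, the rule chose 120 with quantile normalization, 129 with equal array medians, 6 with a minimum difference of 1, and, chosen after seeing the data, 111 with 0.4 and 135 without Col mock arrays 1 and 2. Without single arrays it chose 65 to 148, the highest without Col mock array 3. The mirrored rule gave 103, 48 with quantile normalization, 41 with equal medians, 10 with a minimum of 1, and 87 to 662 without single arrays. With equal medians the median difference over all tested probe sets moved by -0.17 in Col BRZ, -0.13 in arf2 mock and -0.21 in arf2 BRZ, and that of the members became -0.89, -0.81 and -0.97.

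Of the counts of members called, arf2 BRZ against arf2 mock gave 3 and 8 with array weights (2 to 4 without single arrays). Against Col BRZ it gave 0, 5 with array weights and 1 with trend and robust variances (0 to 1). Against Col mock it gave 62 (34 to 63), the interaction 18 (7 to 21), and arf2 mock against Col BRZ 9 and 16 with array weights (5 to 12). The causes were not tested. Among 1680 recomputed differences of named members none reversed and 122 moved by more than the spread between replicates. The members were selected for lower values than in Col mock, so nothing is read from the absence of reversals.

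Arrays with the same replicate number did not deviate together in general, since 3 of 15 such pairs correlated above 0.1 (-0.59 to 0.14), so the numbers were not taken to pair the arrays. With the replicate block the counts were 62 for Col BRZ and 62 for arf2 mock against Col mock, 10 for the interaction, 52 for arf2 BRZ against Col mock, and 8 for arf2 mock against Col BRZ. AT4G11210 had an adjusted p of 0.0505 with the block and 0.0573 with array weights in arf2 mock.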
